A study of Mus musculus with 8 samples.

Results

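Gpx4 and Stk11 lie close together on mouse chromosome 10, and the stretch around them was examined for trimethylation of histone H3 at lysine 4 (H3K4me3) in lung tumor cells with and without an engineered Gpx4 allele. Its members were all peaks of the deposited H3K4me3 table that start on chromosome 10 between 76 and 84 Mb, taken by position and not by their values. These were 319 of 35486 listed peaks, assigned by the authors to 198 genes. They fell on 318 distinct positions, because 1 position was listed under 2 genes. Each change was followed against the distance from the Gpx4 peak, which starts at position 79889200.

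Tumor cells with the surface profile CD45-CD31-EpCAM+ were sorted from the lungs of 2 KL and 2 KLG4m/m mice, and CUT&Tag for the mark gave 1 library per mouse. KL mice carried KrasLSL-G12D/+ and Lkb1fl/fl, and KLG4m/m mice carried KrasLSL-G12D/+, Lkb1fl/fl and Gpx4m/m. All mice received intranasal Ad-Cre at 8 to 10 weeks of age and tamoxifen 5 weeks later, given over 2 weeks, and tumor cells were taken 10 weeks after Ad-Cre. The libraries held 3244495 to 3463731 reads in peaks. The sources state 3 mice in total where 4 libraries carry separate labels, so the p-values measure the spread between these libraries.

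The engineering of both genes falls inside the stretch that was examined. Lkb1 is another name of Stk11, and Cre removed its exons 3 to 6 in both groups. Gpx4m/m is a knock-in at the Gpx4 locus, in which rox sites flank exons 5 to 7 and a cassette adds a CAG promoter, a STOP element between loxP2272 sites and the tamoxifen-dependent recombinase DreERT2. Only KLG4m/m cells carried that cassette and lost those exons, so the inserted promoter, the deletion and the lack of the protein cannot be told apart as partners of a change nearby. The Gpx4 peak and both Stk11 peaks sit at gene starts outside the deleted exons, so their heights do not check either deletion.

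H3K4me3 marks the nucleosomes at active and poised start sites of genes and is deposited by the SET1 and MLL methyltransferases, often over CpG-rich promoters. Gpx4 encodes the selenoenzyme that reduces phospholipid hydroperoxides and holds back ferroptosis, a form of cell death driven by lipid peroxidation. Stk11 encodes LKB1, the kinase that activates AMPK, and its loss is common in lung adenocarcinoma.

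To show the letters at the starts concerned, promoters of Gpx4 and of 4 called genes within 250 kb downstream are given beside that of Stk11, as the 250 bases before the start site in RefSeq of build GRCm38.p6. The table's positions belong to another build, so promoters were matched by gene symbol and by the spacing of start sites from that of Gpx4, which was identical for Sbno2 and Dazap1 and differed by 27 bases for Stk11, 14 bases for Cbarp and 68 bases for Pwwp3a. In GRCm38.p6 these stretches are chr10:80053315-80053564 on the plus strand for Gpx4, chr10:80075440-80075689 on the minus strand for Sbno2, chr10:80115545-80115794 on the plus strand for Stk11, chr10:80139368-80139617 on the minus strand for Cbarp, chr10:80226348-80226597 on the plus strand for Pwwp3a and chr10:80264764-80265013 on the plus strand for Dazap1. Each is written from 5′ to 3′ on the gene's strand. Capitals mark GGGCGG, the GC box, or CCAAT, on either strand; the letters do not overlap.
Gpx4: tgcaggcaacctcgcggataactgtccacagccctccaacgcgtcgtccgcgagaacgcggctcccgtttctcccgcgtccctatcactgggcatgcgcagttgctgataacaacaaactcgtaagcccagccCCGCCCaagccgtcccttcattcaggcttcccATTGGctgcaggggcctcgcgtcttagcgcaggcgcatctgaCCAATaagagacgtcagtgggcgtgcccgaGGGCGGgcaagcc
Sbno2: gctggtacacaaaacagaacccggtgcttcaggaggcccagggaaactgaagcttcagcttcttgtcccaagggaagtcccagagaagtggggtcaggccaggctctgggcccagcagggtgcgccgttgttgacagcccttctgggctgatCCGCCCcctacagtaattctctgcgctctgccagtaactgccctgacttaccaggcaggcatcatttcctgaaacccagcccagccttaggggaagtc
Stk11: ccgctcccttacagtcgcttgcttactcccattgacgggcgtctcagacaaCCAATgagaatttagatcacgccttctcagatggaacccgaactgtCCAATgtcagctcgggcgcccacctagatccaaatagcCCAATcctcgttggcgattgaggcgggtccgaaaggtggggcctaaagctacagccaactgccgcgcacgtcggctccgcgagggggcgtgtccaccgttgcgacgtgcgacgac
Cbarp: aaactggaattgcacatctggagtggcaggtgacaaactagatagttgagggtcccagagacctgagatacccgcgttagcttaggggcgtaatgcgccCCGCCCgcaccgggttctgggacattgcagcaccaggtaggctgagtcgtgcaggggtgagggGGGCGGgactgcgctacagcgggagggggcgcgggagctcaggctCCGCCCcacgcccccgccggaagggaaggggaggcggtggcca
Pwwp3a: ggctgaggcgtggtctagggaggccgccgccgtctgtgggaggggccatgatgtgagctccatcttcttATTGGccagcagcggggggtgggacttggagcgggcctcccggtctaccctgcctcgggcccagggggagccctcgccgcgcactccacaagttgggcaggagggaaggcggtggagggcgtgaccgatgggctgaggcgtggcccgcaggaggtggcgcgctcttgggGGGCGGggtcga
Dazap1: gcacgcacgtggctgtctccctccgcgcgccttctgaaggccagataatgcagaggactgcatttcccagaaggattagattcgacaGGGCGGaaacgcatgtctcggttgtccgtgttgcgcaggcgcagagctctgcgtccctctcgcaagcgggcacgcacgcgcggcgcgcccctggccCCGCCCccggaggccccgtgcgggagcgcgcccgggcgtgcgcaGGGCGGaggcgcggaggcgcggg
The Gpx4 promoter held 2 GC boxes and 2 CCAAT boxes, and 63.2% of its bases were G or C. The Sbno2 promoter, whose peak was higher in KLG4m/m, held 1 GC box and 5 CpG dinucleotides. The Cbarp and Dazap1 promoters, whose peaks were lower, held 3 GC boxes each and no CCAAT box, with 18 and 35 CpG dinucleotides. The Pwwp3a promoter, whose peak was also lower, held 1 GC box, 1 CCAAT box and 20 CpG dinucleotides. The called Stk11 peak and the second called Sbno2 peak had no promoter matched by spacing. The Stk11 promoter held 3 CCAAT boxes, no GC box and 24 CpG dinucleotides. Among all 32851 promoters of the same length, with or without the mark, 32.7% held a GC box and 33.8% a CCAAT box, and the median was 6 CpG dinucleotides. Promoters of uncalled peaks near Gpx4 were rich as well, such as Polr2e with 27 CpG dinucleotides and 3 GC boxes, and Midn with 21 and 4. Others held fewer, such as Abca7 with 12 and 1. RefSeq held a promoter for 158 of the 198 genes, and 126 of the 191 peaks within 1 kb of a start site could be matched to one by spacing, too few for a comparison of base composition between called and uncalled peaks.

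Across the whole stretch more peaks leaned upward than downward in KLG4m/m cells. Of 319 peaks, 201 (63.0%) had a log2 fold change of KLG4m/m over KL above 0, against 51.0% of all listed peaks, and the median was 0.09 against 0.01. In edgeR's quasi-likelihood test with Benjamini-Hochberg adjustment over all 35486 peaks at 0.05, 18 peaks were higher in KLG4m/m (5.64%) and 15 were lower (4.70%). The background over all listed peaks was 3.10% higher and 5.52% lower. The share called higher was thus above the background and the share called lower below it, and neither difference was tested, because neighbouring peaks are not independent replicates. Peaks of the stretch were stronger, with a median of 30.1 scaled counts per 1000000 reads in peaks against 13.4 over all listed peaks. More were annotated as promoter (70.5% against 56.3%). Among peaks with 10 or more such counts, 63.5% in the stretch and 54.7% of all were above 0 (medians 0.09 and 0.03). Of these, 5.62% were higher and 5.22% lower in the stretch, against 3.84% and 7.05% of all. On the rest of chromosome 10, 48 of 1613 peaks were higher and 86 lower, with a median of 0.02.

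These counts rested on all 4 libraries. DESeq2 called 0 higher and 3 lower of the 271 peaks it gave an adjusted p. Over all peaks of the stretch, with or without an adjusted p, 17 higher and 14 lower passed an unadjusted p of 0.05 by DESeq2. Quantile normalization with limma called 4 higher and 8 lower. Without KL replicate 1 there were 11 higher and 12 lower, and without KL replicate 2 there were 4 and 8. Without KLG4m/m replicate 3 or replicate 4 edgeR called 0 peaks in the stretch and 0 in the genome, while 27 higher and 28 lower, or 30 higher and 14 lower, passed an unadjusted p of 0.05 in the stretch. Peaks were measured with a mean of 10.0 to 452.0 reads per library (median 102.8), so counting error alone is large at the weakest of them.

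**Figure D1:**
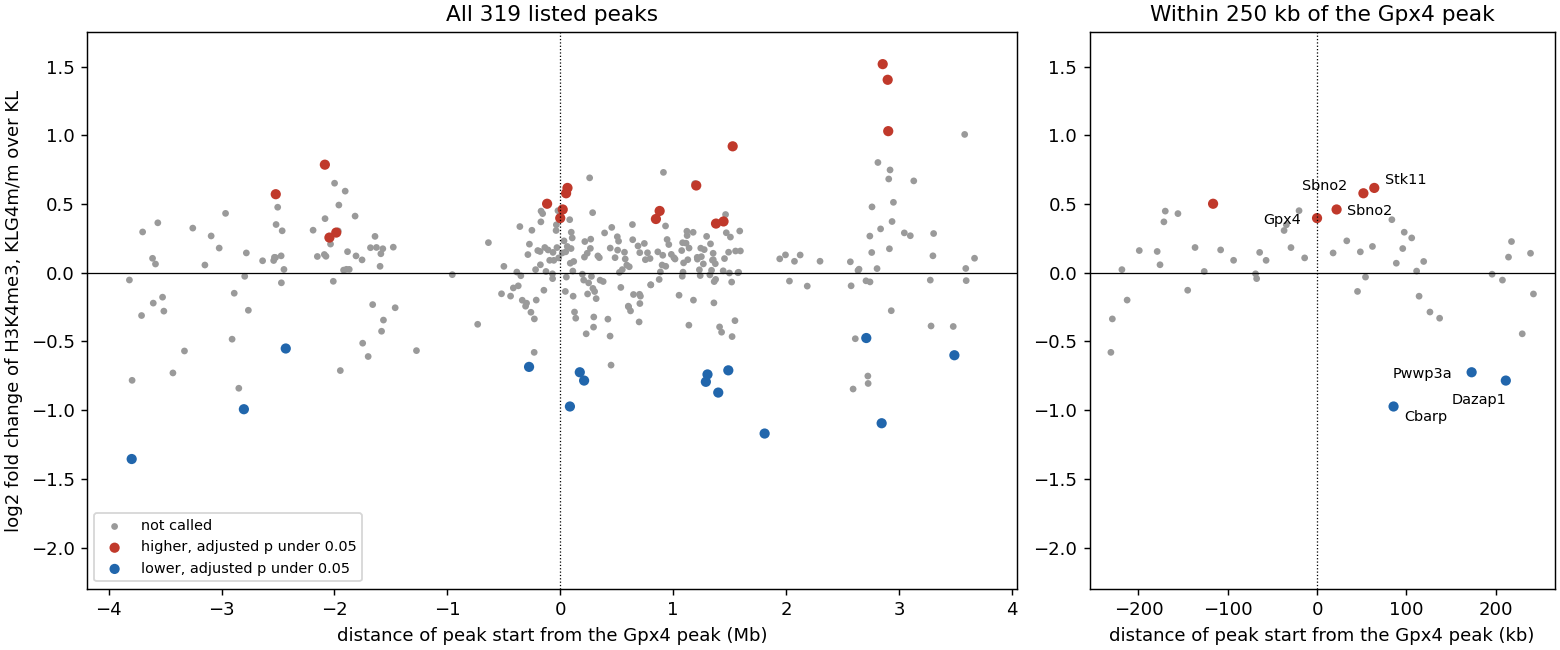
Log2 fold change of H3K4me3 (KLG4m/m over KL) for each peak against the distance of its start from the Gpx4 peak, in Mb for all 319 peaks and in kb for those within 250 kb. Red points are the 18 peaks called higher and blue points the 15 called lower, and 4 red points lie from Gpx4 to Stk11.

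Change showed no clear relation in rank to the distance from Gpx4. Spearman's rank correlation coefficient of change against absolute distance was -0.015 over 319 peaks, and -0.055 over the 249 peaks that averaged 10 or more CPM (counts scaled by TMM to a common size per library, in parts per 1000000 reads in peaks). These peaks share the same 4 libraries and neighbours overlap in their signal, so the coefficients are descriptions. Upstream it was -0.13 over 118 peaks and downstream 0.037 over 202 peaks, the Gpx4 peak being counted on both sides. The peaks next to Gpx4 had the highest median of the bands. Of the 11 peaks under 50 kb from it, 10 were above 0 and the median log2 fold change was 0.23. From 50 to 250 kb the median of 44 peaks was 0.08, from 250 kb to 1 Mb that of 82 peaks was 0.04, from 1 to 2 Mb that of 91 peaks was 0.10, and beyond 2 Mb that of 91 peaks was 0.09. The medians beyond 50 kb were close to each other, with no order by distance.

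The bands were also read on each side of Gpx4, with no test between the sides. Upstream, on the side of Polr2e and Arhgap45, all 5 peaks under 50 kb were above 0 with a median of 0.31 and none passed the test, and the 19 peaks from 250 kb to 1 Mb had a median of -0.10 with 7 above 0. Downstream, on the side of Stk11, 5 of 6 peaks under 50 kb were above 0, and the 63 peaks from 250 kb to 1 Mb had a median of 0.09 with 39 above 0. Peaks within 1 kb of a start site and the others leaned the same way: 113 of 191 (median 0.06) and 88 of 128 (median 0.14) were above 0. Over all listed peaks these shares were 50.4% (median 0.002) and 51.6% (median 0.015). Near start sites 6.28% were called higher and 5.24% lower, against 2.89% and 8.43% of all such peaks. Among the others 4.69% were higher and 3.91% lower, against 3.29% and 2.82%.

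The 10 peaks from Gpx4 to Stk11 held 4 of the 18 higher calls (40% of the 10) and 0 of the 15 lower ones. Over all listed peaks 3.10% were higher and 5.52% lower, so 0 lower calls among 10 peaks says little. The Gpx4 peak and the second Stk11 peak bound this interval and are among its 4 calls. The lower Cbarp call lies beyond it. Of the 10, 8 were above 0 with a median of 0.21. Widened to 100 kb on both sides, 25 peaks held 4 higher calls and 1 lower call, 20 were above 0 and the median was 0.18. Of the 20 uncalled peaks within 100 kb, 16 were above 0, between -0.14 and 0.45.

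Gpx4 had 1 peak, which covers the start of transcript NM_008162.4. It held 69.6 and 68.0 CPM in the KL libraries and 88.2 and 93.2 CPM in the KLG4m/m libraries, from 242, 236, 304 and 301 reads. Both KLG4m/m libraries stood above both KL libraries. The same held at 9770 of all 35486 listed peaks, and the reverse at 9456, so a lack of overlap is common. The peak was 1.32-fold higher (log2 fold change 0.40, SE 0.094, adjusted p = 0.00854 by edgeR). DESeq2 gave an adjusted p of 0.267, while 7 of 8 alternatives other than leaving out a library kept the call, as did 1 of the 4 fits with a library left out (0.36 to 0.43).

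Stk11 had 2 peaks, with starts 2.1 kb apart, and the second one rose. The first, 62.04 kb downstream of the Gpx4 peak, held 81.7 and 96.2 CPM in KL and 98.9 and 104 CPM in KLG4m/m. The groups did not overlap there, which is common over all listed peaks, and the difference did not pass the test (log2 fold change 0.19, adjusted p = 0.202 by edgeR). The second, 64.1 kb downstream and at another start site of the gene, held 56.7 and 49.8 CPM in KL and 71.3 and 92.6 CPM in KLG4m/m. It was 1.53-fold higher (log2 fold change 0.62, SE 0.12, adjusted p = 0.00140 by edgeR), the larger of its 2 KLG4m/m values lying farther from the other than the KL values lay from each other. DESeq2 gave an adjusted p of 0.0538 for it, and 2 of the 4 fits with a library left out kept the call (0.42 to 0.79).

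Sbno2, a transcriptional coregulator known from inflammatory responses of myeloid cells, fills most of the space between the 2 genes with 7 peaks. The peak 21.9 kb from Gpx4 held 77.1 and 58.8 CPM in KL and 89.6 and 97.5 CPM in KLG4m/m. It was 1.38-fold higher (log2 fold change 0.46, adjusted p = 0.00765 by edgeR), and without KL replicate 2 its log2 fold change was 0.28. The peak 51.9 kb from Gpx4 held 21.6 and 19.3 CPM in KL and 33.9 and 26.9 CPM in KLG4m/m and was 1.49-fold higher (log2 fold change 0.58, adjusted p = 0.0296 by edgeR). In both peaks the groups did not overlap, which is common over all listed peaks and adds no support to peaks chosen by the test. DESeq2 and quantile normalization did not keep either call. With a library left out, the log2 fold change ran from 0.28 to 0.67 at the first and from 0.39 to 0.73 at the second. The 5 remaining Sbno2 peaks lay between -0.14 and 0.23 and did not pass, and the called peaks were at 2 of its start sites.

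The 10 peaks within 100 kb upstream of Gpx4 did not pass the edgeR test. Arhgap45, a gene of blood cells, had 3 peaks with log2 fold changes of 0.31, 0.35 and 0.18. Its strongest peak held 87.2 and 67.7 CPM in KL and 98.6 and 92.9 CPM in KLG4m/m (adjusted p = 0.0613 by edgeR). Polr2e, which encodes a subunit shared by the nuclear RNA polymerases, had a peak at its start site (0.11) and one 20.1 kb from Gpx4 in intergenic sequence that held 24.5 and 25.1 CPM in KL and 30.7 and 37.2 CPM in KLG4m/m (log2 fold change 0.45, adjusted p = 0.0657 by edgeR). Farther upstream the start-site peaks of the lipid transporter gene Abca7 (0.09), the actin-binding calponin gene Cnn2 (0.15), Wdr18 (0.09), Tmem259 (-0.01) and Gm26243 (-0.04) were close to 0.

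Just beyond Stk11 the direction changed within 1 gene. Cbarp, a regulator of voltage-gated calcium channels, had a peak 85.7 kb from Gpx4 that held 24.5 and 26.8 CPM in KL and 13.3 and 12.7 CPM in KLG4m/m. Both KLG4m/m values lay far below both KL values, and the peak was 1.96-fold lower (log2 fold change -0.97, SE 0.18, adjusted p = 0.00133 by edgeR, 0.0922 by DESeq2). Its other peak, 1.9 kb nearer to Gpx4, held 29.3 and 25.6 CPM in KL and 37.1 and 34.7 CPM in KLG4m/m (log2 fold change 0.39, adjusted p = 0.0979 by edgeR). The next start sites, those of Atp5f1d (0.07), a subunit of ATP synthase, and of Midn (0.18 and 0.29), were not called.

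**Figure D2:**
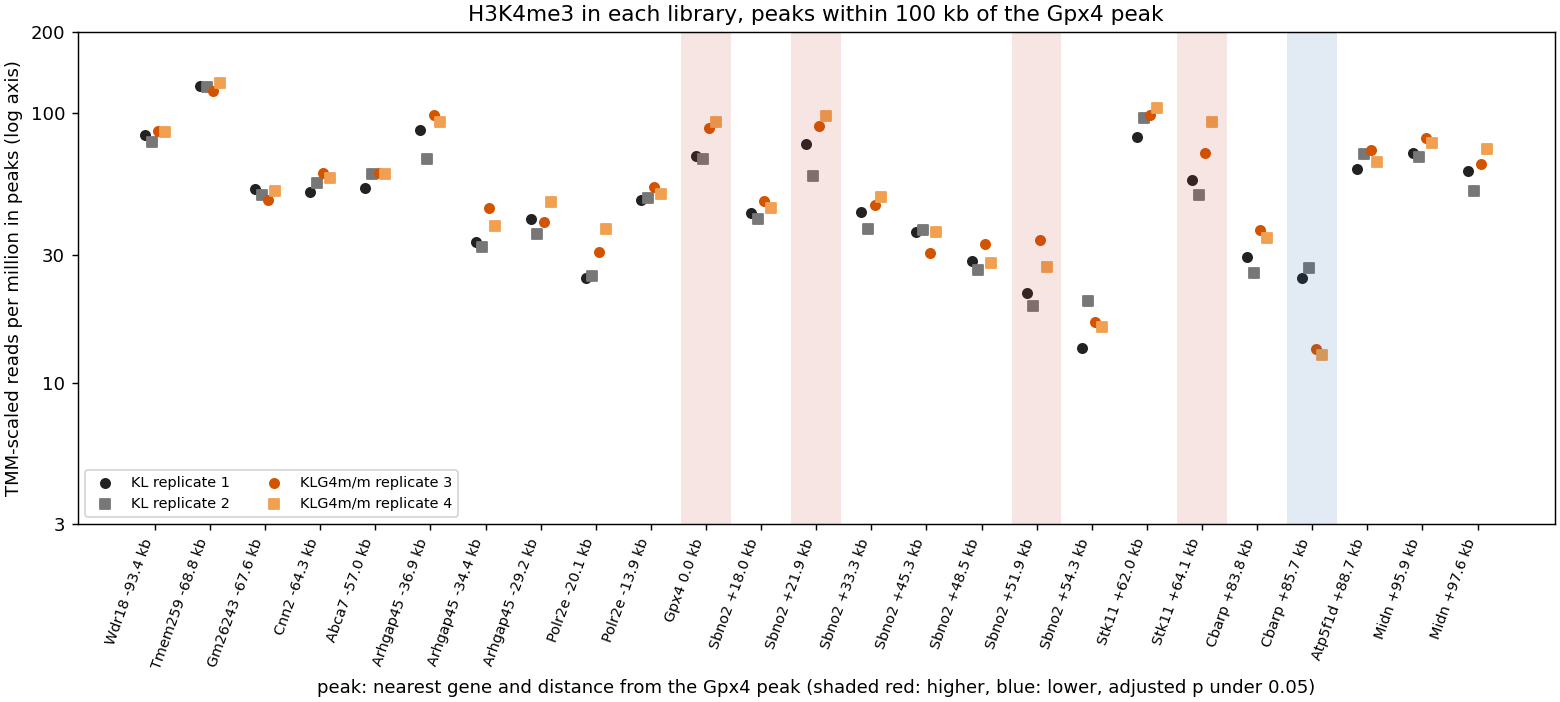
H3K4me3 of the 25 peaks within 100 kb of the Gpx4 peak in each library, in TMM-scaled CPM on a log axis, ordered by position. Red shading marks the 4 peaks called higher, from Gpx4 to Stk11, and blue shading the Cbarp peak at 13.3 and 12.7 CPM in KLG4m/m.

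Lower calls followed at 2 more promoters within 250 kb. Pwwp3a, a PWWP-domain protein that binds chromatin, had 1 peak 173.1 kb from Gpx4 with 42.3 and 60.2 CPM in KL and 31.9 and 30.0 CPM in KLG4m/m. It was 1.65-fold lower (log2 fold change -0.72, adjusted p = 0.00315 by edgeR), with the 2 KL libraries well apart, and its log2 fold change was -0.45, not called, without KL replicate 2. Dazap1, an RNA-binding protein that acts in splicing, had 4 peaks. The one 211.3 kb from Gpx4 held 53.5 and 59.0 CPM in KL and 33.1 and 32.2 CPM in KLG4m/m, a 1.72-fold difference (log2 fold change -0.79, SE 0.13, adjusted p = 2.41e-04 by edgeR, 0.0191 by DESeq2). Its promoter is the CpG-rich sequence printed above. Another Dazap1 start-site peak 207.6 kb from Gpx4 held 92.3 and 91.0 CPM in KL and 91.9 and 84.5 CPM in KLG4m/m (log2 fold change -0.05, adjusted p = 0.759 by edgeR). The 3 lower calls of Cbarp, Pwwp3a and Dazap1 lay within 125.7 kb of each other, on the far side of Stk11 from Gpx4.

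Summed over 200 kb, the window that holds Gpx4 stood out from its neighbours. Its 25 peaks, from Tmem259 to Cirbp, summed to 1292 and 1257 CPM in KL and 1451 and 1487 CPM in KLG4m/m. The groups were far apart against their spread (log2 fold change 0.20, SE 0.031, adjusted p = 2.76e-06 by edgeR over 7152 windows). The window before it (21 peaks) had a log2 fold change of 0.08 with an adjusted p of 0.0943, and the window after it (24 peaks), which holds the lower calls of Pwwp3a and Dazap1, had -0.07 with an adjusted p of 0.110. The call for the Gpx4 window passed the test in every alternative tried, with log2 fold changes of 0.12 to 0.22.

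Of the 37 windows with peaks, 6 were higher (0.11 to 0.23) and 4 lower (-1.17 to -0.19). The background was 8.08% of all windows higher and 11.7% lower. The other higher windows start at 77.2 Mb with Itgb2, 77.8 Mb with Pfkl and Icosl, 78.2 Mb with Rrp1, Cstb and Pdxk, 80.6 Mb with Oaz1, Timm13 and Gadd45b, and 80.8 Mb with Map2k2 and Zbtb7a. The lower ones start at 76 Mb with Prmt2 and S100b, 76.4 Mb with the collagen genes Col6a1 and Col6a2, 81.6 Mb with Gm32687 and 83.2 Mb with Aldh1l2 and Washc4, and these 4 held 10 peaks in all. In the 4 fits that each left out 1 library, the windows at 79.8, 77.8 and 81.6 Mb passed every time, and those at 76, 76.4 and 80.8 Mb at no time. In those fits the log2 fold change ran from -0.31 to -0.07 at 76 Mb, from -0.71 to -0.61 at 76.4 Mb and from 0.075 to 0.13 at 80.8 Mb.

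**Figure D3:**
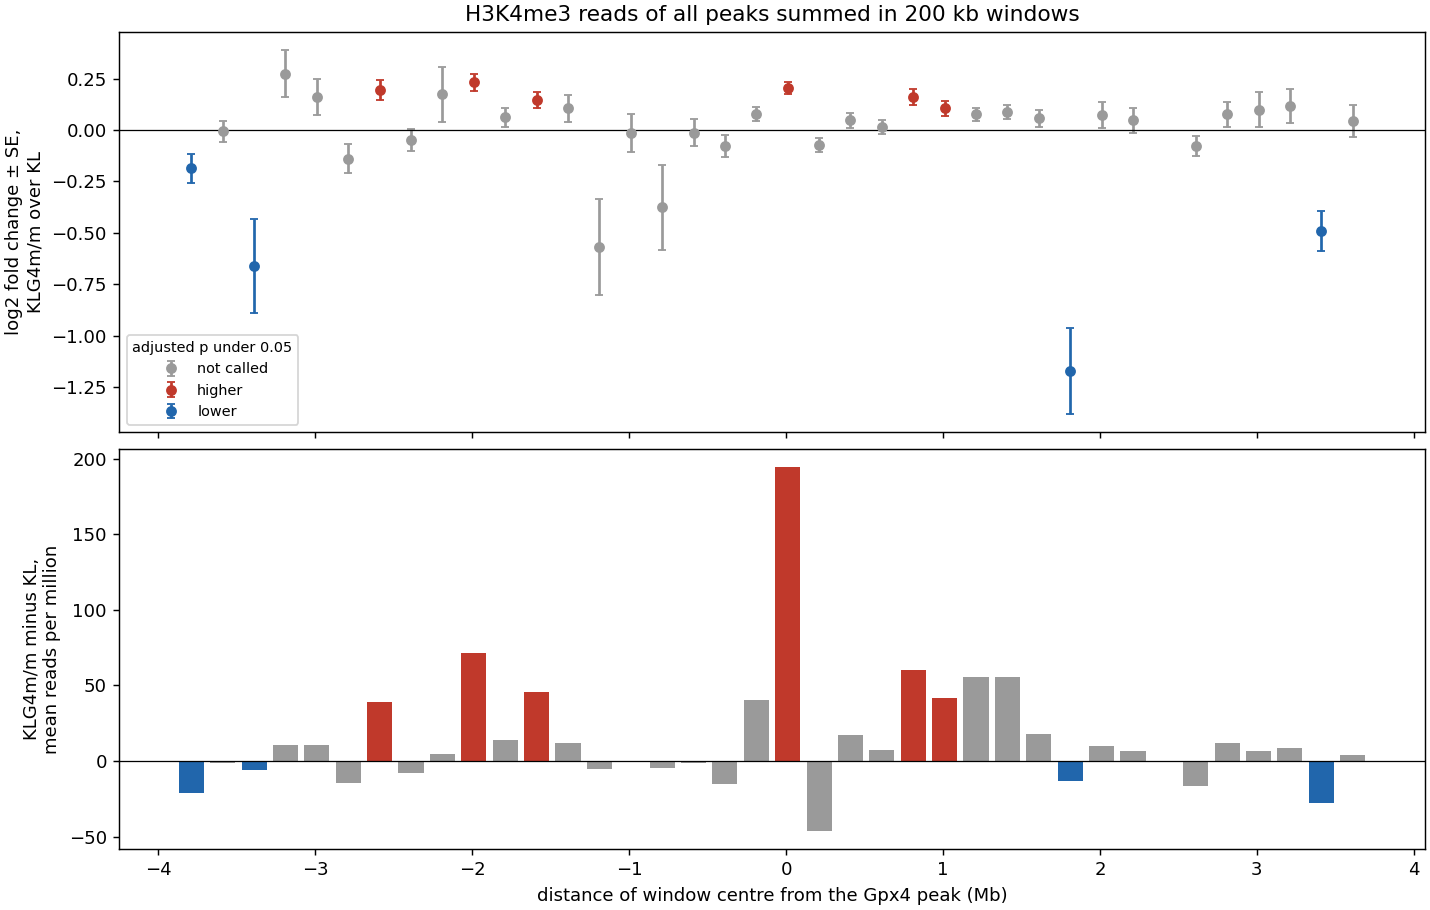
The 37 windows of 200 kb by distance of their centre from the Gpx4 peak: the log2 fold change with its SE above, and the difference in mean CPM below. The window with Gpx4 has the tallest bar, 194 CPM, and the next is the window at 77.8 Mb with 71.4 CPM.

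The 8 Mb as a whole rose slightly. Its peaks summed to 12244 ± 6.62 CPM in KL and 12808 ± 7.18 CPM in KLG4m/m (SD, n = 2 each). This was a log2 fold change of 0.065 (SE 0.0081, adjusted p = 2.90e-04 by edgeR over 357 windows of 8 Mb). The sums rest on 41350 to 44182 reads per library, for which counting error alone exceeds these SDs. Such SDs cannot stand for the spread between mice. The background for windows of that size was 13.7% higher and 14% lower. Among the 157 windows with at least 100 peaks it ranked at 7 by log2 fold change. It also ranked at 6 of 357 by number of peaks. The net difference of 565 CPM was made of 746 CPM gained over 23 windows and a loss of 14 windows, and the window with Gpx4, which held 10.4% of the signal in KL, made up 34.4% of the net. Without that window the log2 fold change was 0.048 (adjusted p = 0.00133 by edgeR), and without the called peaks it was 0.065. Without KL replicate 1 or KL replicate 2 the adjusted p was 0.134 or 0.158 at log2 fold changes of 0.066 and 0.064.

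Genes of the stretch were also read by lists made from textbook roles, with earlier results of these data known, so their counts are descriptions. Over all 35486 listed peaks, 51.0% were above 0, 3.10% were called higher and 5.52% lower. In lists of 10 to 13 peaks, 1 call says little beside these shares. Leukocyte genes, which include Arhgap45 near Gpx4, had 15 peaks. Of these, 14 were above 0 with a median of 0.35, 4 were higher (26.7%) and 0 lower. Itgb2, the beta chain of the leukocyte integrins, had an intronic peak 2.52 Mb upstream of Gpx4 with 25.03 and 29.4 CPM in KL and 39.7 and 41.2 CPM in KLG4m/m (log2 fold change 0.57, adjusted p = 0.0125 by edgeR). Matk, a kinase of blood cells that restrains Src kinases, had a start-site peak 1.20 Mb downstream with 25.9 and 29.7 CPM in KL and 39.7 and 46.8 CPM in KLG4m/m (log2 fold change 0.63, adjusted p = 0.00611 by edgeR). The groups did not overlap at either peak, as at all 18 higher and 15 lower calls of the stretch. The test selects such peaks, and over all 35486 listed peaks the groups were also apart at 9770 (higher) and 9456 (lower), so this adds no support. S1pr4, a sphingosine 1-phosphate receptor of lymphoid cells, rose by 0.37 on the log2 scale (56.7 and 55.0 CPM in KL, 71.9 and 72.8 CPM in KLG4m/m), and Icosl, the ligand of the T cell receptor ICOS, by 0.29 (90.0 and 87.6 CPM, 106 and 111 CPM). For S1pr4 and Icosl the adjusted p was 0.0226 and 0.0338 by edgeR, and 0.437 and 0.485 by DESeq2. Quantile normalization kept neither call.

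Genes of granule serine proteases and their relatives lie 156 to 358 kb upstream of Gpx4. Elane and Prtn3, proteases of neutrophil granules, Gzmm, a granzyme of cytotoxic lymphocytes, and Cfd, complement factor D, had 5 peaks, all above 0 with a median of 0.37, and 0 passed the test. The Elane peak held 10.4 and 8.07 CPM in KL and 11.9 and 13.3 CPM in KLG4m/m, and the Cfd peak 5.47 and 5.18 CPM in KL and 7.25 and 7.12 CPM in KLG4m/m. Over the genome, markers of blood cells also had higher sums in both KLG4m/m libraries, although the sort selected CD45-negative cells. Of all listed peaks, 3.10% were called higher and 5.52% lower. The 14 peaks of 8 neutrophil markers summed to 138 and 138 CPM in KL and 186 and 190 CPM in KLG4m/m (2 higher), the 12 peaks of B cell markers to 70.5 and 69.99 CPM and 108 and 113 CPM (4 higher), the 31 peaks of T cell markers to 397 and 403 CPM and 447 and 472 CPM (0 called) and the 16 peaks of macrophage markers to 236 and 242 CPM and 261 and 266 CPM (0 called).

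Lung epithelial markers had lower sums, with 25 peaks at 528 and 516 CPM in KL and 414 and 438 CPM in KLG4m/m. Of these peaks, 4 were called lower (16%, against 5.52% of all listed peaks). Among these was a peak of Epcam, the gene of the sorted surface protein (40.9 and 42.9 CPM in KL, 22.3 and 23.5 CPM in KLG4m/m). Endothelial markers (21 peaks) summed to 257 to 286 CPM over the libraries (1 lower, Tek) and fibroblast markers (6 peaks) to 73.9 to 82.7 CPM (1 higher, Pdgfrb). In these bulk libraries more cells of a type and more H3K4me3 per cell cannot be told apart, and the part of other cells in the changes was not tested. Left without the 20 peaks of the leukocyte and protease genes, 299 peaks held 14 higher and 15 lower calls with a median of 0.08. The Gpx4 window then had a log2 fold change of 0.19 (adjusted p = 1.10e-05 by edgeR) and the window at 77.2 Mb 0.093 (adjusted p = 0.371 by edgeR). Only listed genes were left out, and others such as Sbno2 stayed in, so these values do not test the part of other cells.

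Over all listed peaks, 3.10% were higher and 5.52% lower. Chromatin and transcription factor genes had 38 peaks with 5 higher (13.2%), 2 lower (5.26%) and a median of 0.04. Beside the 2 Sbno2 peaks, the higher ones were an intronic peak of Arid3a, a DNA-binding protein of B cells (33.1 and 27.7 CPM in KL, 37.4 and 48.9 CPM in KLG4m/m, log2 fold change 0.50), a start-site peak of Nfic, a nuclear factor I protein (68.2 and 59.6 CPM, 85.3 and 78.3 CPM, 0.36), and a peak in the 5′ UTR of the Groucho corepressor gene Tle2 (4.89 and 8.07 CPM, 10.7 and 13.9 CPM, 0.92). Without KLG4m/m replicate 4 the Arid3a value was 0.30 and without KL replicate 1 the Tle2 value was 0.60, neither of them called. Lower ones were Pwwp3a and Nfyb, a subunit of the CCAAT-binding factor NF-Y (42.0 and 35.4 CPM, 31.0 and 24.5 CPM, -0.48, adjusted p = 0.0487 by edgeR). Of 28 peaks of kinase and signalling genes, 3 were higher (10.7%), those of Stk11, Pfkl and Gadd45b, and 1 was lower (3.57%). The lower one was Gna11, a G protein alpha subunit, with 33.1 and 29.7 CPM in KL and 21.5 and 16.7 CPM in KLG4m/m. Gadd45b, a stress-response gene, rose at an intergenic peak 880.3 kb downstream (27.9 and 28.2 CPM, 38.6 and 38.1 CPM, log2 fold change 0.45), and Pfkl, the liver-type phosphofructokinase of glycolysis, at its start site (115 and 127 CPM, 141 and 148 CPM, 0.26, adjusted p = 0.0445 by edgeR). The Pfkl call held in 3 of 8 alternatives other than leaving out a library, and in 0 of the 4 fits that left one out.

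Respiratory chain and mitochondrial genes had 10 peaks with a median of 0.02 and 1 call, the start-site peak of Timm13, a chaperone of mitochondrial protein import (71.9 and 66.8 CPM in KL, 82.1 and 100 CPM in KLG4m/m, log2 fold change 0.39, or 0.24 and not called without KLG4m/m replicate 4). RNA processing genes had 28 peaks with 0 higher and 2 lower (7.14%, near the 5.52% of all listed peaks). The lower ones were Dazap1 and an intergenic peak of Celf5 (11.8 and 12.4 CPM, 7.25 and 5.88 CPM). Genes of translation and protein turnover had 13 peaks, 11 of them above 0, and the 1 call was the lower start-site peak of Ube2g2, a ubiquitin-conjugating enzyme of the endoplasmic reticulum (52.4 and 58.2 CPM, 45.5 and 29.4 CPM, log2 fold change -0.55). Without KLG4m/m replicate 3 it was -0.91 and without KLG4m/m replicate 4 it was -0.28, neither of which passed the test. Lipid metabolism genes had 15 peaks with 0 calls in edgeR and a median of 0.09. The list of selenoprotein and redox genes had 4 peaks. Gpx4 was called, and the other call, Timm13, is the import chaperone already counted above. Txnrd1, the selenoprotein thioredoxin reductase 1, had 79.7 and 70.3 CPM in KL and 71.3 and 82.1 CPM in KLG4m/m (log2 fold change 0.03).

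Collagen and matrix genes were the list with the lowest median, -0.15 over 13 peaks, of which 4 were above 0. The 1 call was Fstl3, an inhibitor of activin, with 17.3 and 18.4 CPM in KL and 10.4 and 11.8 CPM in KLG4m/m (log2 fold change -0.69). Col6a2 held 8.92 and 9.51 CPM in KL and 5.51 and 5.57 CPM in KLG4m/m, and Col6a1 6.62 and 7.20 CPM and 4.35 and 4.95 CPM. Neither passed alone, and their shared window at 76.4 Mb did by edgeR (log2 fold change -0.66, adjusted p = 0.0346) but not by DESeq2 (adjusted p = 0.421). That window rests on 54 and 58 reads in KL and 34 and 34 in KLG4m/m. Polarity and junction genes had 10 peaks with a median of -0.03 and 1 lower call, Gipc3, a PDZ protein (25.03 and 33.7 CPM, 18.3 and 15.5 CPM). The 2 peaks of the zinc finger genes Zfp873 and Zfp938 were not called.

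**Figure D4:**
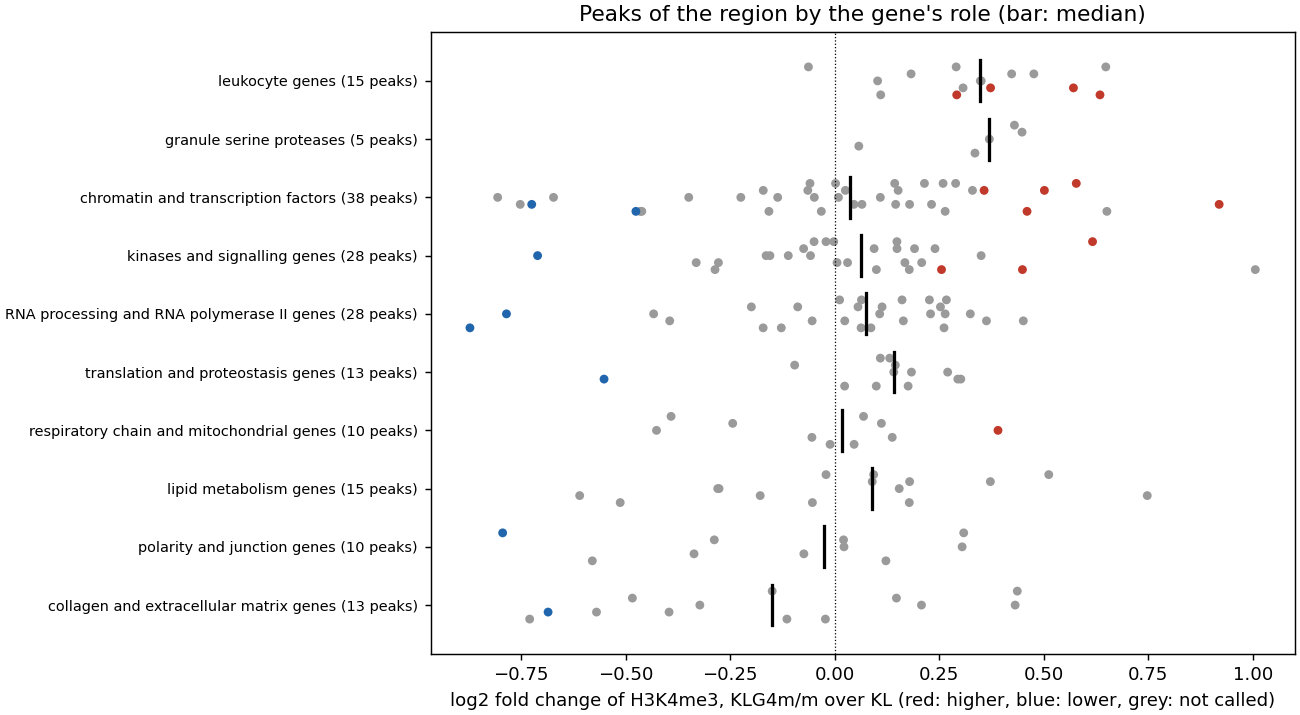
Log2 fold change of H3K4me3 (KLG4m/m over KL) for the peaks of 10 gene lists, 1 point per peak, red where higher, blue where lower and grey where not called, with a bar at the median. Medians run from 0.37 for the 5 protease peaks and 0.35 for the leukocyte genes to -0.15 for the matrix genes.

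The largest decreases lay far from Gpx4. A peak 2.85 Mb downstream, 33.2 kb past the start of Eid3, which encodes a subunit of the SMC5/6 complex, held 35.7 and 32.3 CPM in KL and 15.4 and 16.4 CPM in KLG4m/m (log2 fold change -1.10, SE 0.17, adjusted p = 1.28e-04 by edgeR, 0.0117 by DESeq2). The peak at the start of Eid3 itself leaned the other way, with 6.90 and 6.62 CPM in KL and 13.6 and 9.91 CPM in KLG4m/m (log2 fold change 0.80, adjusted p = 0.0587 by edgeR). The start of the predicted gene Gm32687, 1.81 Mb downstream, held 26.2 and 22.5 CPM in KL and 9.57 and 12.1 CPM in KLG4m/m (log2 fold change -1.17, adjusted p = 4.92e-04 by edgeR, 0.0396 by DESeq2). These 2 and the Dazap1 peak were the calls that DESeq2 kept. An intronic peak of S100b, a calcium-binding protein, fell by 1.36 on the log2 scale from 11.5 and 10.1 CPM to 3.19 and 5.26 CPM.

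Other lower calls were Mfsd12, a cysteine transporter of lysosomes and melanosomes (44.0 and 49.5 CPM in KL, 31.6 and 24.2 CPM in KLG4m/m, log2 fold change -0.74), 14.5 kb from the lower Gipc3 peak, Gm40703 (-0.99) and Washc4 of the WASH complex (-0.60). The remaining higher calls were Trpm2, a cation channel gated by ADP-ribose (9.21 and 7.78 CPM in KL, 15.7 and 13.6 CPM in KLG4m/m, 0.79), 2 peaks of Gm4799 (1.40 and 1.03) and 1 of Gm33781 (1.52, named after its values were seen). Gm33781 had 2.71 without KL replicate 1 and 0.88, no longer called, without KL replicate 2. The stronger change of Gm4799 was called in 3 of 6 alternatives other than leaving out a library, and in 0 of the 4 edgeR fits that left one out. These 3 predicted-gene peaks lay within 49.0 kb of each other and held 0.864 to 10.2 CPM in any library, from 3 to 35 reads.

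**Figure D5:**
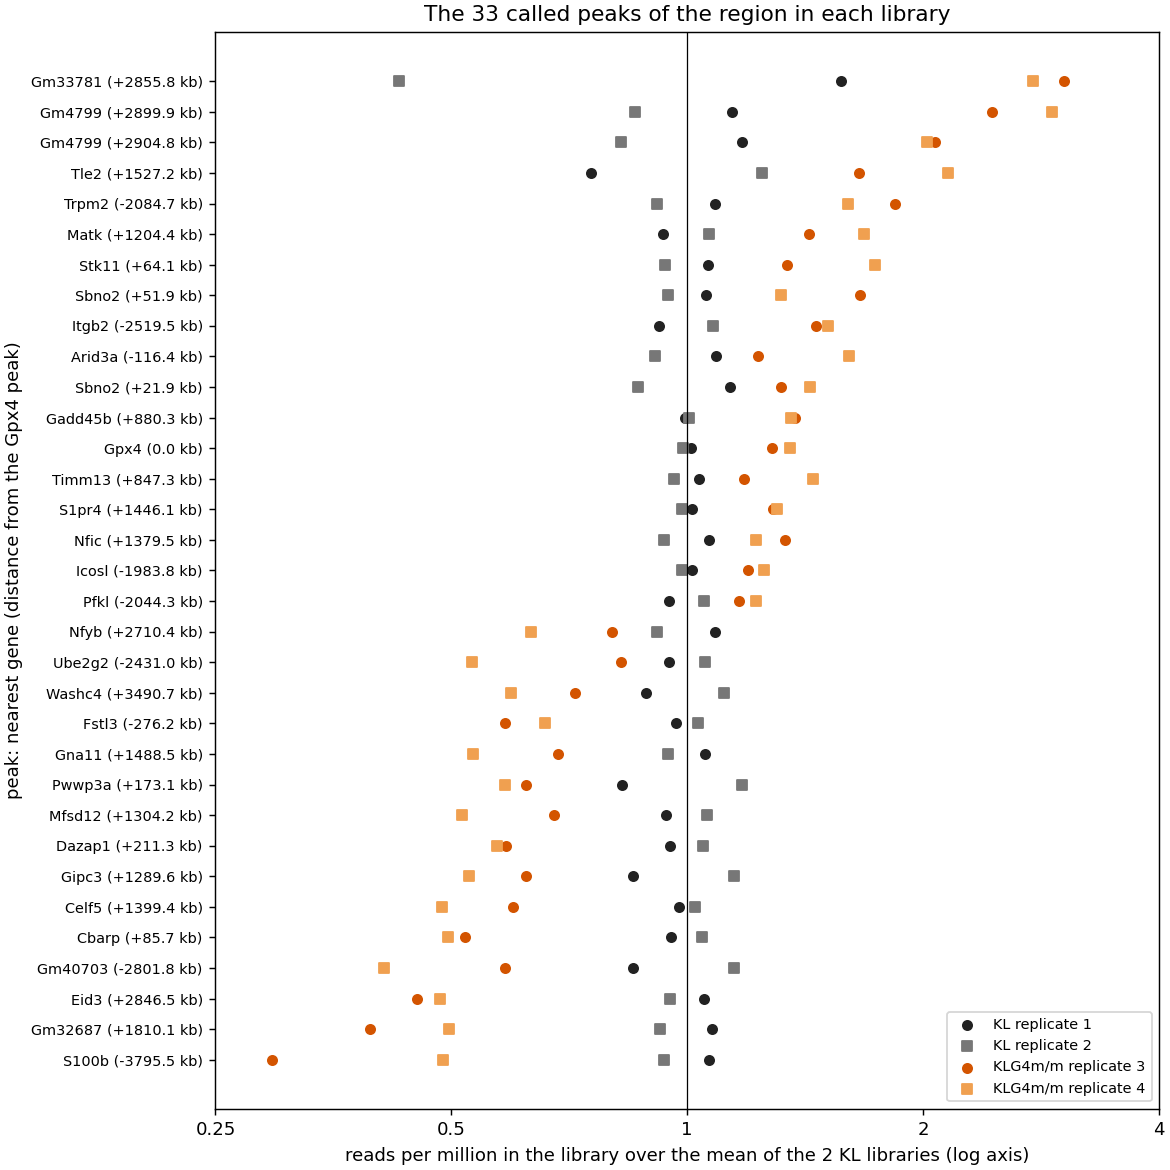
The 33 called peaks in each library, as CPM over the mean of the 2 KL libraries on a log axis, sorted by log2 fold change. The peaks were chosen by the test, and they run from S100b at the bottom (-1.36) to Gm33781 at the top (1.52).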

How the data were processed

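H3K4me3 CUT&Tag libraries of sorted tumor cells from 2 KL and 2 KLG4m/m mice were used, grouped by their labels. Although CUT&Tag is named, the protocol in the labels describes cleavage by a protein A/G-micrococcal nuclease fusion. H3K27ac was not analysed here. The authors trimmed reads with Trim Galore 0.6.10, mapped them with BWA 0.7.15, removed mitochondrial reads, reads of mapping quality under 30 and duplicates (Picard 2.17.3), and called peaks with MACS2 2.2.7.1 (versions per the submitters' processing notes). The deposited table holds read counts, whole numbers without normalization, for 35486 peaks (400 bp each in the stretch examined) over all libraries, and other authors' annotation such as the distance to a start site. The authors' own CPM, fold changes, F scores and p-values are also in it and were not used. The methods name an Ensembl genome release, but the table's positions are not those of GRCm38, so no genome sequence was read by position. Promoter sequences came from RefSeq (GRCm38.p6).

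Counts were scaled by TMM (factors 0.995 to 1.004) and tested with edgeR 4.0.16 (quasi-likelihood, R 4.3.3, common dispersion 0.00133), with Benjamini-Hochberg adjustment over all peaks and no filter on low counts. Reads of distinct positions were also summed by 200 kb and 8 Mb windows over the genome and tested alike. Scaling to reads in peaks hides a change by the same factor at every peak. Alternatives were limma 3.58.1, DESeq2 1.42.0, other scalings, a minimum of 10 CPM, other windows and each library left out. The scripts were tested on simulated data. Motifs were counted on both strands in Python. An exact permutation test of 2 libraries against 2 cannot give a two-sided p under 0.333, so none was run.

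The text names every gene within 100 kb of the Gpx4 peak, the 10 largest called increases and decreases at 10 CPM or more, genes of the lists and called windows. Gm33781 and the weaker Gm4799 peak complete the calls. The stretch (its members follow from position alone) and the lists were chosen with earlier results of these data known.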

Additional observations from a re-analysis of the deposited data

How the results depend on the processing

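No paired analysis was possible because the KL libraries carry numbers 1 and 2 and the KLG4m/m libraries 3 and 4, so that no number is shared. With 18 peaks higher and 15 lower as the reported counts, DESeq2 gave 0 and 3, quantile normalization 4 and 8, a threshold on the unadjusted p 52 and 29, and an added 1.5-fold change 7 higher. The 2 limma fits, total-read, chromosome 10-free and relative log expression scaling, the 10 CPM minimum and, added after seeing the data, the fit without leukocyte and protease genes gave counts within 1.5 times. With 1 library left out, the counts ran from 0 to 11 higher and 0 to 12 lower, where the lone library of a group is assumed to vary like the others. Windows higher and lower were 10 and 2 at 100 kb and 2 and 1 by DESeq2, with 0 lower at 500 kb and at 1 Mb and 2 lower among peaks away from start sites, and 2 to 5 higher and 1 to 2 lower with a library left out. The 8 Mb log2 fold change ran from 0.061 to 0.068 over those fits. The median beyond 100 kb was 0.068 at 10 CPM or more and 0.044 to 0.079 with a library left out, against 0.082. Of the named peaks, all 33 calls kept their direction in all fits. Their groups did not overlap, so leaving out a library could hardly turn the sign, and the kept direction is no support for the calls. Uncalled peaks near 0 changed sign: Sbno2 at 54.3 kb (0.018) and Txnrd1 (-0.0085) under quantile normalization, and, with a library left out, Gzmm (-0.026 to 0.82), Prtn3 at 175.8 kb (-0.094 to 0.20), Tmem259 (-0.058 to 0.041), Gm26243 (-0.096 to 0.0095), Atp5f1d (-0.017 to 0.16), Sbno2 at 54.3 kb (-0.29 to 0.28) and Txnrd1 (-0.069 to 0.13). The fewest reads a peak of the stretch averaged per library was 10, where counting noise alone limits what can be seen.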
